A study of Mus musculus with 10 samples.

Results

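The genes described here are 10 regulators and surface markers of the oligodendrocyte lineage, out of 37447 genes measured in brainstem microglia of 6-week-old mice. They were chosen by name as known genes of the lineage, with earlier results of these data already known, and each was found once in the deposited table. Olig1, Olig2, Sox10, Sox8, Nkx2-2, Nkx6-2 and Gm98 are transcription factors, Gm98 being the older symbol of Myrf. Pdgfra, Cspg4 and Ptprz1 are cell surface proteins used as markers of oligodendrocyte precursors. The microglia came from mice with GFP expressing microglia, isolated either by laser capture microdissection (LCM_GFP, 4 libraries, 3 female and 1 male) or by flow sorting (FACS_GFP, 3 libraries, 2 female and 1 male), and from C57BL/6 wild-type mice by flow sorting (FACS_WT, 3 libraries, all male). The labels used here do not give the promoter that drives GFP. Brainstem slices for laser capture were paraformaldehyde-fixed, frozen and extracted with proteinase K and acid phenol, while sorted cells came from dissociated tissue and TRIzol, so isolation method, fixation and RNA extraction cannot be told apart. In comparisons with FACS_WT, GFP expression and the mix of sexes differ as well and cannot be told apart either. The series set out to compare the 2 isolation methods.

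Oligodendrocytes make the myelin of the central nervous system and arise from dividing precursor cells. Olig2 is needed to specify the lineage, Olig1 and Sox8 act with their close relatives Olig2 and Sox10 during maturation, and Sox10 and Myrf drive the myelin genes in differentiating cells. Precursors carry the PDGF receptor alpha (Pdgfra), through which PDGF-A supports their division, and the NG2 proteoglycan (Cspg4), which pericytes also carry. Microglia belong to the myeloid lineage and are not known for expressing these factors.

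The lineage factors Olig2 and Nkx2-2 and the precursor receptor Pdgfra, with Sox8, are shown by the DNA just before their transcription starts. This DNA was searched for short motifs of the kind that Olig and SOX factors recognise. The basic helix-loop-helix factors Olig1 and Olig2 belong to a family that binds E-boxes, written CANNTG. SOX proteins bind motifs such as ACAAAG. The RefSeq promoter table (build GRCm38.p6, a later build than that of the expression table) held 7 of the 10 genes and was searched over the 250 bases before the start, on both strands. Each line is 5′ to 3′ in the direction of the gene, with E-boxes in capitals. The windows are chr16:91225300-91225549 on the plus strand (Olig2), chr17:25570687-25570936 on the minus strand (Sox8), chr2:147186403-147186652 on the minus strand (Nkx2-2) and chr5:75152001-75152250 on the plus strand (Pdgfra).
Olig2: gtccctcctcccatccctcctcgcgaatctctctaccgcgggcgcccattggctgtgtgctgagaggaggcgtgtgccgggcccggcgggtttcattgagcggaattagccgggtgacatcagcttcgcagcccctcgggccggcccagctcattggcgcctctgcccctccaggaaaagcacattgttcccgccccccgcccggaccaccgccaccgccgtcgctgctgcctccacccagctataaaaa
Sox8: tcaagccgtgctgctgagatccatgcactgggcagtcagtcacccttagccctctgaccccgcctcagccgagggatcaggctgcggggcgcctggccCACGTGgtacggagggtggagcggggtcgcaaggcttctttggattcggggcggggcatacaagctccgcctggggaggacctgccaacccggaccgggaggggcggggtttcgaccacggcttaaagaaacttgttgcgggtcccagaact
Nkx2-2: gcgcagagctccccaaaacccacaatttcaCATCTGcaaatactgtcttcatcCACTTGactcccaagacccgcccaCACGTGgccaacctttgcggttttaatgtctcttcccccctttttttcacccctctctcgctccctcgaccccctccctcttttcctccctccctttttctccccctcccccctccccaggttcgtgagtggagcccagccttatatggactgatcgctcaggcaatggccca
Pdgfra: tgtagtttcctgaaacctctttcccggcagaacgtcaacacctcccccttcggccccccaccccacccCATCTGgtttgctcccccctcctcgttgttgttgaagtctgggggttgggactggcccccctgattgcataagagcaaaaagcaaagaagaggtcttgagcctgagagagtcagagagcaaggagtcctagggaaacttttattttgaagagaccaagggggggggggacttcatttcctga
An E-box was present in 4 of the 7 windows (3 in Nkx2-2, 1 each in Sox8, Nkx6-2 and Pdgfra), beside 66.2% of the 32851 windows of the same length over all genes. ACAAAG was found in 0 of the 7, beside 16.5% of all windows. These matches are letters in a window and were not tested for binding.

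Before the levels of these genes, the libraries themselves need a description. All 18 listed microglia genes, among them Csf1r, stood at 1 FPKM or more in each of the 10 libraries, where FPKM is the number of fragments scaled to transcript length and to sequencing depth. Their summed level was 2301 to 4903 FPKM after laser capture, 6877 to 8622 in FACS_GFP and 8358 to 11094 in FACS_WT. Laser-captured libraries 1 and 3 stood apart: 3 embryonic globins summed to 3401 and 1725 FPKM there, against 2.86 and 0.432 in libraries 2 and 4 and 0 in the 6 sorted libraries. The cell cycle genes (14 listed) summed to 1106, 41.3, 239 and 30.3 FPKM in laser-captured libraries 1 to 4, and to 75.6 to 98.4 in the sorted libraries. The counts of called genes are therefore also given without libraries 1 and 3. The files hold no counts. The spacing of low values of single-exon genes implied that 1 FPKM over 1 kilobase stood for about 34.6 to 45.2 fragments after laser capture and 57.4 to 78.3 after sorting, so the low sorted values do not come with the smaller depth.

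In the laser-captured libraries the lineage genes were clearly measured, and in the sorted libraries they were near 0. All 60 values in the 6 sorted libraries lay under 0.5 FPKM, and 19 of them were listed at 0. In the laser-captured libraries 7 of the 10 genes reached 1 FPKM in every library and 8 in at least 3. For 9 of the 10, every laser-captured library was above every sorted library of both groups. Over all genes with a value above 0, 13.1% lay wholly above in the comparison with FACS_GFP and 12.9% in that with FACS_WT. Nkx6-2 was the gene that overlapped. In bulk RNA, more cells of a type and more RNA per cell cannot be told apart.

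**Figure D1:**
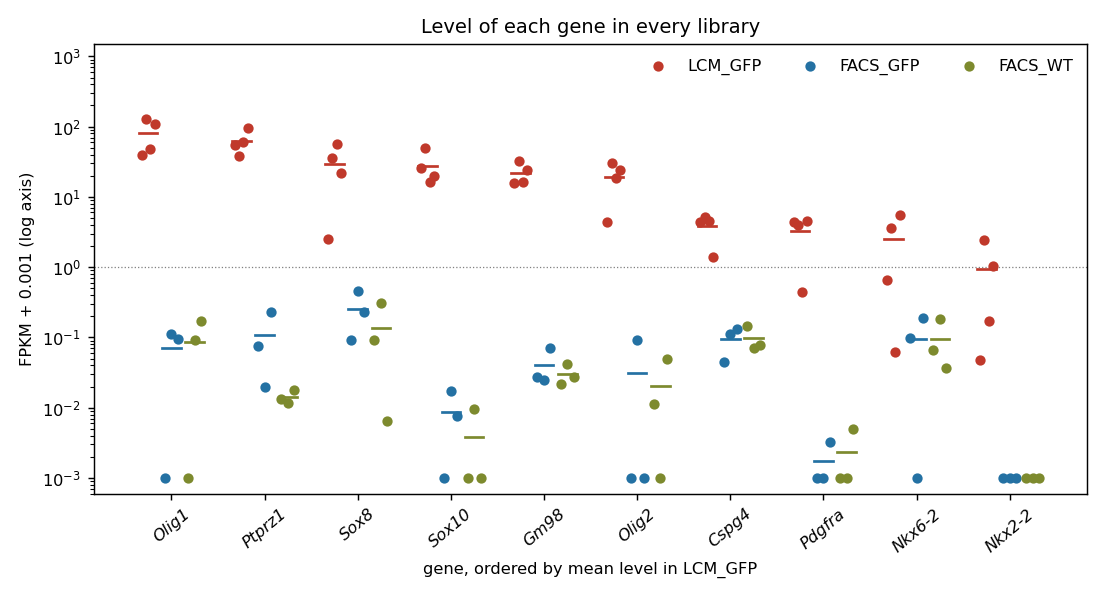
FPKM plus 0.001 (vertical, log axis) of each of the 10 genes in every library, with points for libraries and short bars for group means; LCM_GFP has 4 libraries and the sorted groups 3 each. The dotted line marks 1 FPKM, which no sorted library reached for these genes, and points at the bottom are values listed at 0.

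Olig1 and Olig2 are neighbouring basic helix-loop-helix genes on chromosome 16 (mm9, 91270013 to 91272184 and 91225794 to 91228922, identifiers ENSMUSG00000046160 and ENSMUSG00000039830), with 41091 bases between them. Olig1 had the highest mean of the 10 genes. It stood at 38.9, 127, 47.7 and 109 FPKM in laser-captured libraries 1 to 4 (80.7 ± 43.9, SD, n = 4), at 0, 0.113 and 0.0947 in FACS_GFP libraries 1 to 3 and at 0, 0.0895 and 0.169 in FACS_WT libraries 1 to 3. The groups did not overlap. On the log2(FPKM + 1) scale, used for every test here and compressing changes that start from low values, the difference from FACS_GFP was 6.08 (95% interval 4.85 to 7.32, limma adjusted p = 0.000289) and that from FACS_WT 6.06 (limma adjusted p = 0.000296). Olig2 stood at 4.37, 30.2, 18.3 and 24.2 FPKM in laser-captured libraries 1 to 4 (19.3 ± 11.1, SD, n = 4). Its sorted values were 0, 0.0920 and 0 in FACS_GFP and 0.0102, 0 and 0.0486 in FACS_WT. Library 1 was the low one and the groups did not overlap. The log2 differences of Olig2 were 4.04 from FACS_GFP (95% interval 2.53 to 5.54, limma adjusted p = 0.00297) and 4.05 from FACS_WT (limma adjusted p = 0.00283).

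Sox10 and Sox8 are SOX group E factors. Sox10 (ENSMUSG00000033006, chromosome 15, 78985342 to 78994920) stood at 25.4, 49.1, 16.4 and 20.1 FPKM in laser-captured libraries 1 to 4 (27.8 ± 14.7, SD, n = 4). It stood at 0, 0.0163 and 0.00668 in FACS_GFP and at 0, 0.00855 and 0 in FACS_WT. The groups did not overlap. The log2 differences were 4.71 from FACS_GFP (95% interval 3.58 to 5.85, limma adjusted p = 0.000458) and 4.72 from FACS_WT (limma adjusted p = 0.000477). In the authors' deposited table Sox10 was significant against FACS_GFP and not against FACS_WT (q = 0.244).

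Sox8 (ENSMUSG00000024176, chromosome 17, 25702836 to 25707631) had the highest single sorted value of the 10 genes, and it varied widely after laser capture. Its laser-captured values were 2.55, 35.3, 57.1 and 22.1 FPKM (29.3 ± 22.9, SD, n = 4), with library 1 far below the others. Its sorted values were 0.0906, 0.452 and 0.226 in FACS_GFP and 0.0911, 0.305 and 0.00543 in FACS_WT. The groups did not overlap, with laser-captured library 1 closest to the sorted values. The log2 differences were 4.03 from FACS_GFP (95% interval 1.93 to 6.13, limma adjusted p = 0.0129) and 4.18 from FACS_WT (limma adjusted p = 0.0108). Leaving out any 1 FACS_GFP library ended the first call, leaving out FACS_WT library 1 or 3 ended the second (largest limma adjusted p = 0.0546), and the authors' deposited table did not call Sox8 against FACS_GFP (q = 0.799).

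Gm98 encodes Myrf, a membrane-bound factor that is cleaved to activate myelin genes (ENSMUSG00000036098, chromosome 19, 10282761 to 10315238). It was the steadiest of the 10 after laser capture, at 15.7, 32.1, 16.5 and 23.8 FPKM (22.0 ± 7.66, SD, n = 4), a spread of 2.05 times from lowest to highest. Its sorted values were 0.0265, 0.0235 and 0.0693 in FACS_GFP and 0.0210, 0.0414 and 0.0263 in FACS_WT. The groups did not overlap. The log2 differences were 4.41 (95% interval 3.39 to 5.43, limma adjusted p = 0.000398) and 4.42 (limma adjusted p = 0.000429).

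The homeodomain factors Nkx2-2 and Nkx6-2 were the least abundant and did not pass the filter of 1 FPKM in at least 3 compared libraries, so neither was tested. Nkx2-2, which acts in the timing of precursor differentiation (ENSMUSG00000027434, chromosome 2, 147003281 to 147019979), stood at 0.0473, 2.46, 0.168 and 1.04 FPKM in laser-captured libraries 1 to 4 and was listed at 0 in all 6 sorted libraries. Nkx6-2 (ENSMUSG00000041309, chromosome 7, 146765275 to 146768696) stood at 0.663, 3.66, 0.0603 and 5.61 FPKM after laser capture. Its sorted values were 0.0985, 0 and 0.188 in FACS_GFP and 0.0658, 0.183 and 0.0361 in FACS_WT. Libraries 2 and 4 held nearly all of the signal of both genes, and library 3 of Nkx6-2 fell within the sorted range. With the filter removed, the log2 differences from FACS_GFP were 0.78 for Nkx2-2 (limma adjusted p = 0.272) and 1.31 for Nkx6-2 (limma adjusted p = 0.236).

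Of the surface markers, Ptprz1 was by far the highest. It encodes a receptor-type phosphatase of precursors and astrocytes (ENSMUSG00000068748, chromosome 6, 22825501 to 23002916). It stood at 54.0, 38.8, 61.2 and 95.7 FPKM in laser-captured libraries 1 to 4 (62.4 ± 24.1, SD, n = 4), at 0.0746, 0.0186 and 0.229 in FACS_GFP and at 0.0123, 0.0107 and 0.0169 in FACS_WT. The log2 differences were 5.77 from FACS_GFP (95% interval 4.73 to 6.81, limma adjusted p = 0.000184) and 5.89 from FACS_WT (limma adjusted p = 0.000177). Library 2, the highest for Olig1, Olig2, Sox10, Nkx2-2, Gm98 and Cspg4, was the lowest for Ptprz1. Astrocytes also express Ptprz1, and the 14 astrocyte genes summed to 1115 to 1653 FPKM after laser capture, 413 to 451 in FACS_GFP and 345 to 438 in FACS_WT. Most of the sorted sum was Glul, glutamine synthetase, at 323 to 419 FPKM after sorting and 268 to 467 after laser capture. The astrocyte genes Aldoc, Slc1a2 and Gfap each stood between 59.8 and 410 FPKM after laser capture and under 0.6 after sorting. Their part in the Ptprz1 level was not tested.

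Pdgfra (ENSMUSG00000029231, chromosome 5, 75548315 to 75594229) stood at 4.33, 3.96, 0.444 and 4.50 FPKM after laser capture (3.31 ± 1.92, SD, n = 4). It was listed at 0 in 4 of the 6 sorted libraries and stood at 0.00224 in FACS_GFP library 3 and 0.00394 in FACS_WT library 3. Library 3 was about 10.1 times below the highest laser-captured library, yet still above every sorted library. The log2 difference was 1.93 from each sorted group (95% interval from FACS_GFP 0.79 to 3.06, limma adjusted p = 0.0210, and 0.0208 from FACS_WT). Each call was lost without the filter on low values, without any 1 library of the sorted group, and in the authors' deposited table (q = 0.696 and 0.118).

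Cspg4 (ENSMUSG00000032911, chromosome 9, 56712910 to 56747677) stood at 4.43, 5.23, 4.47 and 1.41 FPKM after laser capture (3.89 ± 1.69, SD, n = 4). Its sorted values were 0.0439, 0.110 and 0.130 in FACS_GFP and 0.144, 0.0687 and 0.0781 in FACS_WT. Library 4 was the low one here, a different library from that of Pdgfra. The log2 difference was 2.07 from each group (95% interval from FACS_GFP 1.16 to 2.99, limma adjusted p = 0.00649, and 0.00675 from FACS_WT), and it was lost without any 1 library of the sorted group (largest limma adjusted p = 0.0770). The genes of pericytes and smooth muscle, cells that also carry NG2, summed to 45.0 to 162 FPKM after laser capture and to 2.40 to 4.35 in the sorted libraries. Fibroblast genes, of interest because fibroblasts express Pdgfra, summed to 21.3 to 69.3 and 1.22 to 3.24 FPKM. The part of these cells in the levels of Cspg4 and Pdgfra was not tested.

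**Figure D2:**
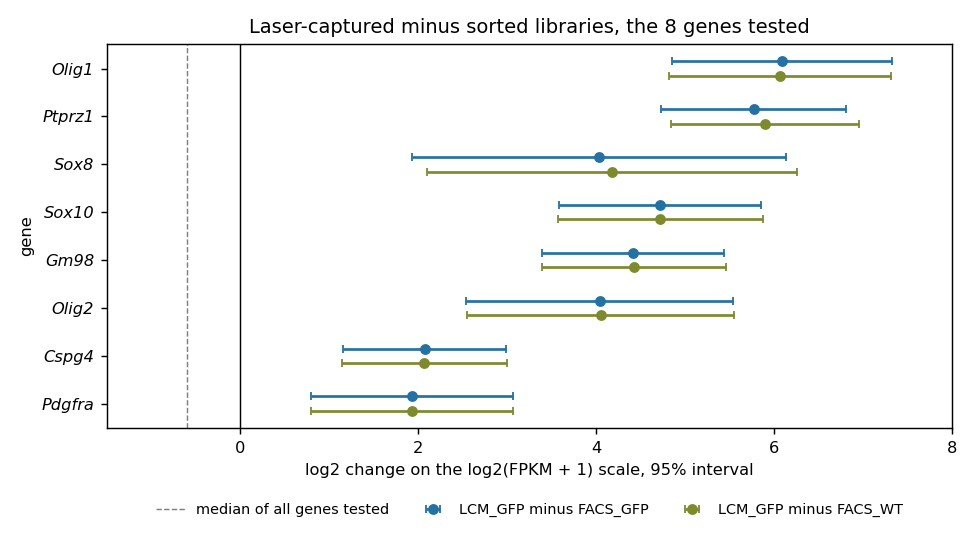
Log2 change on the log2(FPKM + 1) scale (horizontal, with 95% intervals) of the 8 genes tested, for LCM_GFP (n = 4) against FACS_GFP (n = 3, blue) and against FACS_WT (n = 3, green). The dashed line is the median of all genes tested against FACS_GFP, at −0.60, and every interval lies above 0.

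Read together, 8 of the 10 genes passed the filter and all 8 of these were called higher against each sorted group, with a median log2 difference of 4.22 from FACS_GFP. Of all genes tested, 12.5% were called higher against FACS_GFP and 12.3% against FACS_WT, and 19.6% and 19.1% were called lower. The median over all 13403 genes tested was −0.60. No member reached 1 FPKM after sorting, so each passed the filter on its laser-captured values, and the count of tested genes carries that choice. The 2 comparisons share the same 4 laser-captured libraries. With libraries 2 and 4 alone, chosen after the globin values were seen, and 1 FPKM asked in 2 libraries, all 10 genes were called higher against each sorted group. In that setting 19.1% of all genes tested were called higher against FACS_GFP and 18.8% against FACS_WT. The members entered it on their values in those same 2 libraries, where Nkx2-2 and Nkx6-2 were high, so it does not test them anew.

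The order of the levels in the laser-captured libraries, on the FPKM scale, which is per length, was Olig1, Ptprz1, Sox8, Sox10, Gm98, Olig2, Cspg4, Pdgfra, Nkx6-2 and Nkx2-2. Neighbours in this order differed by more than the larger of their SDs in 2 places. Ptprz1 exceeded Sox8 by 33.2 FPKM (larger SD 24.1) and did so in 4 of 4 libraries, and Olig2 exceeded Cspg4 by 15.4 FPKM (larger SD 11.1) in 3 of 4. The other 7 adjacent pairs differed by less than the larger of their SDs.

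The 10 genes did not all vary together over the 4 laser-captured libraries. From lowest to highest library, Gm98 spanned 2.05 times, Ptprz1 2.47, Sox10 2.98, Olig1 3.26, Cspg4 3.71 and Olig2 6.92 times. Pdgfra spanned 10.1 times, Sox8 22.4, Nkx2-2 52.2 and Nkx6-2 93.1 times. Libraries 2 and 4 were both above libraries 1 and 3 for 5 genes (Olig1, Olig2, Nkx2-2, Nkx6-2 and Gm98) and both below for 0. The share of all genes with this order was not computed, so the count cannot be read as particular to these genes. Sox8 was highest in library 3 and Cspg4 lowest in library 4. The sum over the 10 genes was 150, 328, 222 and 308 FPKM in laser-captured libraries 1 to 4 and 0.334 to 0.946 FPKM in the sorted ones. The sum was lowest in library 1, the library with the highest globin and cell cycle sums. Whether what sets libraries 1 and 3 apart bears on these differences was not tested.

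**Figure D3:**
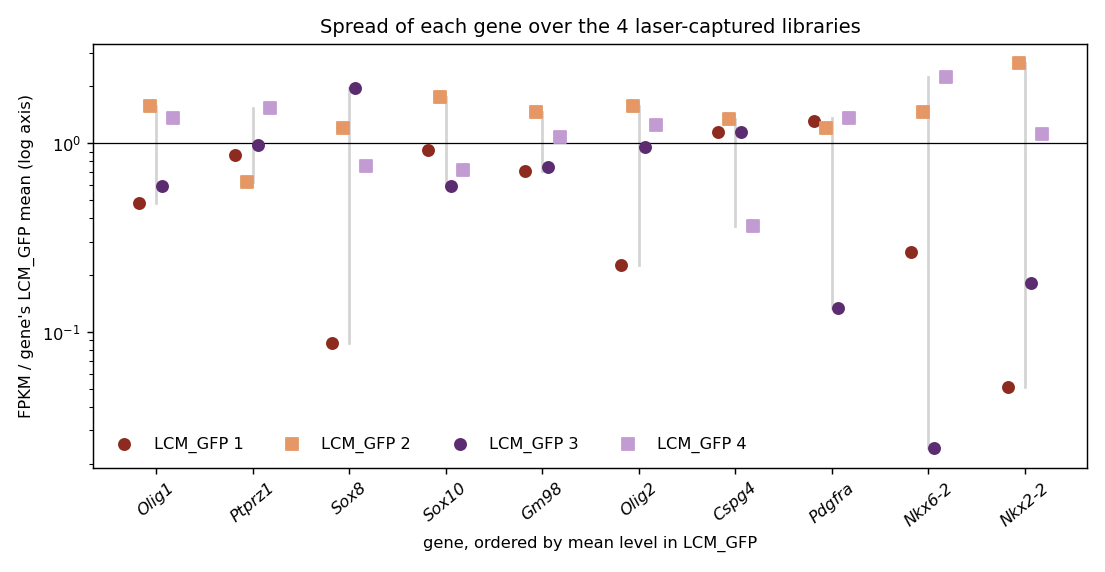
FPKM of each gene in laser-captured libraries 1 to 4 divided by the gene's mean over those libraries (vertical, log axis); circles are libraries 1 and 3 and squares libraries 2 and 4. Olig1, Olig2, Gm98, Nkx6-2 and Nkx2-2 have both squares above both circles, while library 1 is lowest for Sox8 and library 3 for Pdgfra.

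Between sorted GFP expressing and sorted wild-type microglia none of these genes was called different. No member reached 1 FPKM in any sorted library, so 0 of the 10 entered that test. With the filter removed 9 had a value above 0 in some library, and limma called 0 of them, with 0 at an unadjusted p under 0.05. The authors' deposited table called 0 of 10, and marked only Sox8 as having enough data for a test. Over all genes tested, 0.110% were called in either direction. Ptprz1 was the gene whose groups lay apart, with the lowest FACS_GFP library (0.0186 FPKM) just above the highest FACS_WT library (0.0169 FPKM), both near 0. Over all genes with a value above 0, 8.07% had every FACS_GFP library above every FACS_WT library. The FACS_GFP values of Ptprz1 ran up to 0.229 FPKM, in library 3. The authors' deposited table listed a log2 difference of 3.02 for Ptprz1, marked as not tested. All member values here lie under 0.5 FPKM, so the lack of calls does not show that the 2 groups are alike.

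Other transcriptional regulators of the lineage gave a mixed picture. Of 28 listed, 23 were tested against FACS_GFP, of which 8 rose and 1 fell, with a median log2 difference of 0.74. Between the sorted groups 14 passed the filter, and the genes that rose were not among them. Those genes needed their laser-captured values to enter the test, so the count of 8 carries that choice. The 8 were St18 (5.63), Sox9 (4.99), Sox6 (3.42), Zfp536 (3.37), Sox2 (3.01), Sox5 (2.96), Myt1 (1.96) and Zfp488 (1.59), named after their values were seen. Sox2 and Sox9 are also factors of neural progenitors and astrocytes. The 1 that fell was Zfp191 (−1.63), which was not called after median ratio scaling. Against FACS_WT the counts were also 8 and 1. Without any 1 FACS_GFP library 3 rose and 0 fell, and with laser-captured libraries 2 and 4 alone 9 rose and 4 (Chd7, Hdac2, Sox4 and Zfp191) fell. That last setting asked 1 FPKM in 2 libraries. Genes low after sorting entered it on those same 2 libraries, so it does not test them anew.

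The most abundant regulators on that list were high in sorted microglia too. Zeb2, a zinc finger repressor, stood at 114 ± 49.9 FPKM after laser capture (SD, n = 4) and at 231 ± 18.1 in FACS_GFP (SD, n = 3). Tcf4, an E-protein partner of Olig factors, stood at 133 ± 49.1 FPKM and 124 ± 4.43. Chd7 ranged from 35.9 to 144 FPKM after laser capture and from 99.7 to 153 over the sorted libraries. Tcf7l2, a Wnt pathway factor of differentiating oligodendrocytes, stood at 498 FPKM in laser-captured library 1 and at 38.4, 37.1 and 70.7 in libraries 2 to 4, beside 74.4 to 112 in FACS_GFP. None of these 4 passed the test against FACS_GFP (smallest limma adjusted p = 0.0634, for Zeb2). They are genes of the lineage that these sorted microglia also contained.

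The tested precursor and committed precursor markers mostly rose. Of 22 listed, 18 were tested against FACS_GFP, with 14 higher and 1 lower and a median log2 difference of 2.90, and the counts against FACS_WT were the same. Only 5 of the 22 passed the filter between the sorted groups. The other tested genes needed their laser-captured values to enter, so the count carries that choice. Bcas1, a marker of newly forming oligodendrocytes, stood at 22.6, 62.9, 65.9 and 56.3 FPKM after laser capture and at 0.0256, 0.143 and 0.0634 in FACS_GFP (log2 difference 5.51, limma adjusted p = 0.000312). Sulf2, a heparan sulfate sulfatase, stood at 314, 208, 70.7 and 128 FPKM against 21.1, 27.2 and 20.5 (log2 difference 2.73, limma adjusted p = 0.00605). Fyn, a kinase of oligodendrocyte maturation, stood at 18.2, 75.9, 22.3 and 30.2 FPKM against 8.84, 8.10 and 8.78 (log2 difference 1.75, limma adjusted p = 0.0398). Itpr2, an intracellular calcium channel, was the 1 that fell, from 150, 172 and 152 FPKM in FACS_GFP to 75.6, 65.9, 62.9 and 46.2 after laser capture (log2 difference −1.34, limma adjusted p = 0.0120), which median ratio scaling did not call. The groups did not overlap for any of these 4 genes. Without FACS_GFP library 1 or 3 the list had 9 higher and without library 2 it had 10, each with 0 lower, and with laser-captured libraries 2 and 4 alone 18 of 20 were higher. There 1 FPKM was again asked in 2 libraries, so genes low after sorting were not tested anew.

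A list of signalling genes joined ligands, related receptors and binding partners of the 3 surface markers with FGF and Hedgehog pathway genes that also act on precursors. Of 19 listed, 14 were tested, with 8 higher and 0 lower against each sorted group and a median log2 difference of 3.02 from FACS_GFP. The 8 were Ptn, Cntn1, Nrcam and Pdgfrb beside the FGF receptors Fgfr1, Fgfr2 and Fgfr3 and the Hedgehog receptor Ptch1, and those not described next were named after their values were seen. Of these, only Fgfr1 and Ptch1 also passed the filter between the sorted groups. The rest needed their laser-captured values to enter, so the count carries that choice. With laser-captured libraries 2 and 4 alone and 1 FPKM asked in 2 libraries, 9 of 15 were higher and 1, Pdgfb, was lower. Genes low after sorting entered on those same 2 libraries and were not tested anew. Pleiotrophin (Ptn), a ligand of Ptprz1, stood at 20.3, 98.7, 130 and 111 FPKM after laser capture and at 0.0316, 0.0619 and 0.287 in FACS_GFP (log2 difference 6.06, limma adjusted p = 0.000606). Contactin 1 (Cntn1), which binds Ptprz1, stood at 27.5, 82.3, 90.2 and 169 FPKM against 0.0133, 0.0657 and 0.127 (log2 difference 6.19, limma adjusted p = 0.000414). Pdgfa, the ligand of Pdgfra, differed in pattern from its receptor: it stood at 20.5, 115, 31.6 and 34.0 FPKM after laser capture and at 30.4, 36.2 and 29.8 in FACS_GFP (log2 difference 0.31, limma adjusted p = 0.703). Midkine (Mdk), another Ptprz1 ligand, was at 843 FPKM in library 1 and at 40.3 and 27.7 in libraries 3 and 4, while library 2 lay within the range of the sorted libraries, 0.864 to 2.28 (log2 difference 4.09, limma adjusted p = 0.0863, and 1.90 with libraries 2 and 4 alone, limma adjusted p = 0.181). Over the alternatives its limma adjusted p ranged from 0.0112 to 0.185, and without library 2 it passed the test (log2 difference 5.38, limma adjusted p = 0.0178).

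Genes of myelin and mature oligodendrocytes were mostly higher too, and their regulation by the lineage factors was not tested. Of 25 listed myelin and mature oligodendrocyte genes, 24 were tested and 22 rose with 0 lower against each sorted group, with a median log2 difference of 5.38 from FACS_GFP. Only 6 of the 25 passed the filter between the sorted groups. The other tested genes needed their laser-captured values to enter, so the count carries that choice. With laser-captured libraries 2 and 4 alone and 1 FPKM asked in 2 libraries, 23 of 24 were higher. Genes low after sorting entered on those same 2 libraries and were not tested anew. Their sum was 4488 to 10201 FPKM after laser capture, 600 to 662 in FACS_GFP and 552 to 786 in FACS_WT. Most of the sorted sum came from Sirt2 (296 to 404 FPKM after sorting) and Trf (199 to 401).

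Genes of other brain cells were higher beside them. Of the tested genes 14 of 15 neuron genes, 11 of 14 astrocyte genes, 6 of 8 endothelial genes and 3 of 4 pericyte and smooth muscle genes rose against FACS_GFP, and 1 of 3 fibroblast genes did. With laser-captured libraries 2 and 4 alone, and 1 FPKM asked in 2 libraries, these counts were 14 of 14, 12 of 14, 6 of 8, 3 of 5 and 1 of 2 in the same order. Between the sorted groups 3, 3, 2, 0 and 0 of the listed genes passed the filter, again in that order. The other tested genes needed their laser-captured values to enter, so the counts in both settings carry that choice. Of 2 tested Schwann cell genes 0 rose and 1, Egr2 (log2 difference −4.39), fell against FACS_GFP, and 7 were listed. Egr2 stood at 14.9 to 23.9 FPKM in the sorted microglia themselves. The other, Cdh19, went the opposite way (log2 difference 2.30 from FACS_GFP, limma adjusted p = 0.0512). Against FACS_WT Cdh19 was called higher (log2 difference 2.32, limma adjusted p = 0.0490) and Egr2 lower (−3.98). Neuron genes summed to 977 to 2730 FPKM after laser capture and 14.0 to 21.2 in the sorted libraries. Microglia genes were called lower for 12 of 18 against FACS_GFP and 16 of 18 against FACS_WT, but for 2 and 4 under median ratio scaling, for 1 against FACS_GFP without any 1 FACS_GFP library, and for 10 against FACS_GFP with laser-captured libraries 2 and 4 alone. Of the cell cycle genes 0 of 12 passed against FACS_GFP, with 0 at an unadjusted p under 0.05, but without laser-captured library 1, which held most of their signal, 3 of 10 (Aurkb, Pcna and Tyms) were called lower. The part of these other cells in the levels of the lineage genes was not tested.

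**Figure D4:**
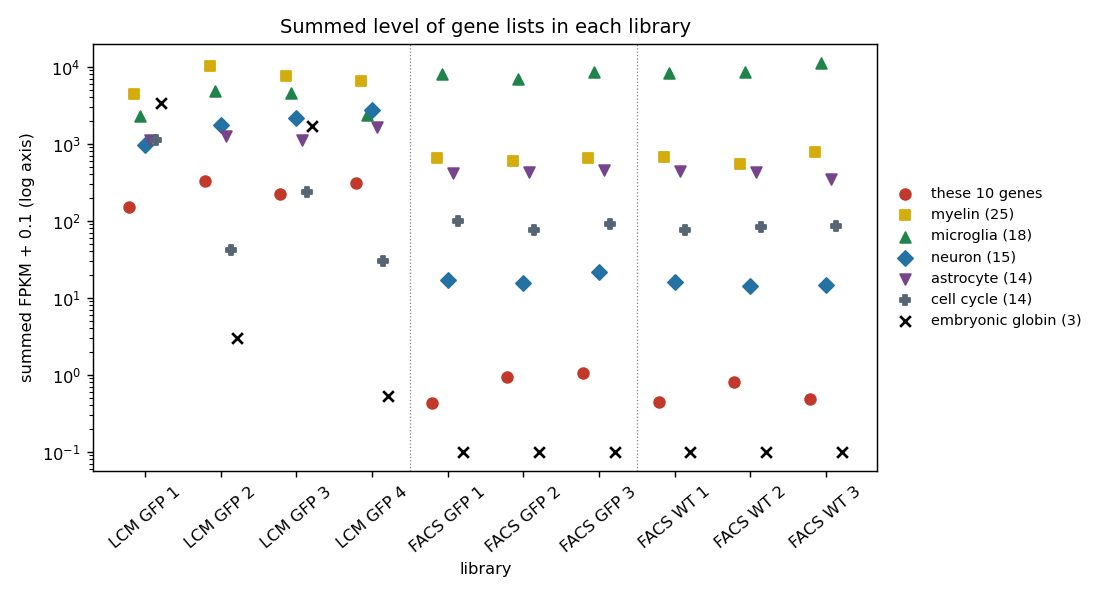
Summed FPKM plus 0.1 (vertical, log axis) of the 10 lineage genes and of 6 gene lists in each of the 10 libraries (horizontal), with the number of listed genes in parentheses. The 10 lineage genes sum to 150 to 328 FPKM after laser capture and to under 1 after sorting, and embryonic globins are high in laser-captured libraries 1 and 3.

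Several genes beside the members on the chromosome were well measured after sorting, where the member was near 0. Lmf1, 8487 bases from Sox8, stood at 63.8 ± 50.2 FPKM after laser capture (SD, n = 4), 79.3 ± 2.92 in FACS_GFP and 90.5 ± 11.6 in FACS_WT (SD, n = 3 each). Dagla, 4516 bases from Gm98, stood at 28.0 ± 33.6, 22.7 ± 0.61 and 22.6 ± 1.11 FPKM in the same order. Polr2f, an RNA polymerase subunit 3138 bases from Sox10, stood at 65.6 ± 41.8, 18.4 ± 5.26 and 16.1 ± 2.10 FPKM. The uncharacterised gene 2810468N07Rik, 229 bases from Sox8, ranged from 0.734 to 2.81 FPKM after laser capture and up to 0.0990 after sorting. These neighbours were named after their values were seen and were not tested. Nkx6-2 overlaps Inpp5a by 277 bases, and Nkx2-2 overlaps the antisense gene Nkx2-2as by 10162 bases and 6430503K07Rik by 985. Inpp5a stood at 17.0 ± 25.8 FPKM after laser capture (SD, n = 4) and at 4.82 to 12.3 after sorting. After laser capture Nkx2-2as reached 0.300 FPKM and 6430503K07Rik 4.76, and both were listed at 0 after sorting. Strand use in the counting is not given in the sources used here, so reads of these overlapping genes cannot be told apart.

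The genes whose log2(FPKM + 1) followed the mean of the 10 members most closely over the 10 libraries were Edil3 (Pearson r = 0.9995), Ncan (0.9993), Wasf1 (0.9989), Kif21a (0.9989) and Slc12a5 (0.9988). These values describe mainly the gap between laser-captured and sorted libraries, which all genes of this pattern share, and 1107 of the 11840 genes compared had r above 0.9. Ncan is the proteoglycan neurocan, and Slc12a5 is a chloride transporter of neurons.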

How the data were processed

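RNA was sequenced in 10 libraries of mouse brainstem microglia. Per the submitters' processing notes, reads were handled with build mm9 and 4 tools, Cufflinks 2.0.2, Bowtie2 2.0.0, TopHat2 2.0.4 and CASAVA 1.8.2. The order of steps and the annotation release are not given in the sources used here. The deposited FPKM values, per the file headers, cover 37447 genes. The authors' deposited comparison table gives a log2 fold change, p-value and q-value for each pair of groups, per the file headers.

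Differences were tested with limma 3.58.1 (R 4.3.3, trend and robust settings, two-sided) on log2(FPKM + 1) over all genes with 1 FPKM or more in at least 3 compared libraries, using only the 2 groups compared, with Benjamini-Hochberg adjustment and a threshold of 0.05. The script was tested on simulated data. Alternatives changed the pseudocount, filter, scaling, model and libraries. The members and the 13 lists (194 genes) were chosen with earlier results of these data known. Named list genes were up to 4 per list by mean FPKM, and exceptions are stated. Genes most like the members (5) were taken by correlation over the libraries.

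Depth is an estimate: only 66.7 to 76.7% of low values fell near a whole multiple (tolerance 0.2), so whole fragments were not recovered. A value of 0 can be a failed estimate. The labels call the libraries biological replicates.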

Additional observations from a re-analysis of the deposited data

Results flagged for a closer look

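Pdgfra in laser-captured library 3 stood at 0.444 FPKM, while the other 3 laser-captured libraries lay between 3.96 and 4.50 FPKM. The gap from library 3 to its nearest neighbour was 0.866 of the group's range and exceeded Dixon's 95% critical value for 4 samples. All 10 genes were examined in the laser-captured group, and chance gives such a gap in about 1 of 20 groups. Leaving out library 3 did not end the call of Pdgfra against either sorted group (log2 differences of 2.39 from each, limma adjusted p = 0.000766 from FACS_GFP and 0.000890 from FACS_WT). Without laser-captured library 1, 2 or 4 Pdgfra missed the filter and was not tested.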

How the results depend on the processing

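Of the 8 genes tested, Olig1, Olig2, Gm98 and Ptprz1 stayed called higher against both sorted groups under every alternative run, and no gene reversed. The count of members called higher was 5 to 8 when 1 library was left out, against FACS_GFP and against FACS_WT alike, and it was 5 or 6 whenever that library was a sorted one, where Cspg4 and Pdgfra lost their calls in each case. Over all genes, 738 to 758 of 12685 to 12697 tested were called higher against FACS_GFP without 1 FACS_GFP library. Without 1 laser-captured library 1458 to 2034 of 12762 to 13045 were. Against FACS_WT the higher calls over all genes were 763 to 776 and 1435 to 1990 in the same order. Between the sorted groups the count of members called stayed at 0. The authors' deposited table called 6 against each sorted group. Its share over all genes was not computed, so that count cannot be read as particular to these genes. Without the filter 7 of 10 were called. Over all genes in that setting, 1382 of 23201 were called higher against FACS_GFP and 1360 of 23076 against FACS_WT. Laser-captured libraries 2 and 4 alone with the filter kept at 3 libraries left no member to test. The median log2 difference of the members from FACS_GFP was 7.12 with a pseudocount of 0.1 and 2.36 with one of 5, against 4.22 with 1.

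Over all genes, the 1681 higher and 2624 lower calls against FACS_GFP became 1856 and 1252 under median ratio scaling, which moved the median of all genes from −0.60 to −0.12, and the 1649 and 2558 against FACS_WT became 1834 and 1237. All calls together, 4305 and 4207, fell to 1042 to 1087 and 1089 to 1160 without 1 sorted library, and were 6974 and 6668 with laser-captured libraries 2 and 4 alone and 1 FPKM asked in 2 libraries. Between the sorted groups the 13 calls were 3 with all groups in 1 fit, 7 without the filter, and 4 to 15 without 1 library.

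Replicate numbers gave no sign of a pairing between laser-captured and sorted libraries, though with so few libraries the check cannot exclude one. Deviations of same-numbered libraries correlated at −0.029 to 0.006 (LCM_GFP with FACS_GFP) and −0.040 to −0.002 (LCM_GFP with FACS_WT). In each comparison 0 of 3 libraries correlated best with their own number. For FACS_GFP with FACS_WT, same-numbered libraries correlated at 0.010 to 0.214 and the others at −0.224 to 0.089. There 2 of 3 correlated best with their own number, which does not settle whether the sorted libraries were paired. With the replicate block, 7 of 7 members were called against each sorted group (Pdgfra missed the filter there) and 0 between the sorted groups, and calls over all genes were 3536, 3422 and 19. Genes called higher there were 1385 of 12762 tested against FACS_GFP and 1347 of 12758 against FACS_WT.

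Depth limits what can be said of the sorted libraries, where values under 0.5 FPKM carry no count and no interval.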
